A study of Homo sapiens with 24 samples.

Results

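The comparison described here sets a non-targeting antisense oligonucleotide (ASO-Neg) against a mock transfection (Mock) in HT-144 cells, and was chosen by the sample titles. It took 8 of the 24 deposited files and 2 of the 6 groups. HT-144 is an established human melanoma cell line that came from a metastasis. ASO-Neg cells received a negative control ASO at 5 nM, and Mock cells received neither an ASO nor a small interfering RNA (siRNA). Whether Mock received the transfection lipid, and which sequence and chemistry the control ASO had, were not given in the sources used here. All groups were kept for 3 days in RPMI-1640 medium supplemented with insulin, transferrin and selenium, and RNA was sequenced from polyadenylated, strand-specific libraries. The other groups were ASO-SREBF1-S1 and ASO-SREBF1-S4 (ASOs for SREBF1, 5 nM), siSREBF1 (a pool of siRNAs for SREBF1, 50 nM) and siNegative (a scrambled siRNA, 50 nM). Their levels are given beside the comparison.

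An antisense oligonucleotide is a short synthetic strand that pairs with a complementary RNA. Depending on its chemistry, it either recruits RNase H, which cuts the RNA of an RNA:DNA hybrid, or blocks access to that RNA. A non-targeting ASO is meant to match no transcript, so it serves to control for delivery and for the oligonucleotide itself. Oligonucleotides can nevertheless pair imperfectly with other transcripts, bind nucleic acid binding proteins and engage innate sensors, which is why such a control is set against a mock.

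The 4 files of a group were sequencing lanes of 1 library, which the series text calls technical replicates, and were summed. ASO-Neg held 17415823 gene counts and Mock 12916478, with 4232432 to 4418042 counts in an ASO-Neg lane and 3140386 to 3274794 in a Mock lane. With 1 library in each group no difference between them has a replicate check, and the 95% intervals given below cover counting error only. Levels are in CPM, counts scaled to library size, with TMM factors applied. Before those factors, 3 counts were worth 0.172 CPM in ASO-Neg and 0.232 CPM in Mock. Ratios are log2 of ASO-Neg over Mock with a prior count of 2. A gene counted as measured where it reached 10 CPM in either library, which held for 9654 genes after 109 others were set aside because their counts may be reads of an abundant gene on the opposite strand. HT-144 cells expressed the melanocytic lineage genes: all 8 lineage markers were measured in these libraries. Of the markers of other cell types, 3 of 9 fibroblast, 1 of 6 keratinocyte, 1 of 5 endothelial and 0 of 6 immune markers were measured, and POSTN, KRT1 and CDH5 had no count in either library. The fibroblast list summed to 749 CPM in ASO-Neg and 696 CPM in Mock, and the keratinocyte list to 23.7 CPM in ASO-Neg and 23.9 CPM in Mock. The endothelial list summed to 39.0 CPM in ASO-Neg and 42.4 CPM in Mock, and the immune list to 1.19 CPM in ASO-Neg and 0.697 CPM in Mock.

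Few genes differed by 2-fold. LRRC15 was higher in ASO-Neg (1 of 9654 measured genes, 0.0104%), and FAM219A and KIF13B were lower (2 genes, 0.0207%). FAM219A lay at 0.193 times its Mock level, the lowest ratio of all measured genes. The promoters of LRRC15 and FAM219A, the genes of highest and lowest ratio, are given as examples only, 5′ to 3′ on the gene's own strand. They run from 250 bases before to 50 bases after the RefSeq start on GRCh38.p14. Capitals mark CG dinucleotides, which read the same on both strands. The LRRC15 promoter (chr3:194369694-194369993, minus strand) holds 8 of them and the FAM219A promoter (chr9:34458521-34458820, minus strand) holds 31.
LRRC15: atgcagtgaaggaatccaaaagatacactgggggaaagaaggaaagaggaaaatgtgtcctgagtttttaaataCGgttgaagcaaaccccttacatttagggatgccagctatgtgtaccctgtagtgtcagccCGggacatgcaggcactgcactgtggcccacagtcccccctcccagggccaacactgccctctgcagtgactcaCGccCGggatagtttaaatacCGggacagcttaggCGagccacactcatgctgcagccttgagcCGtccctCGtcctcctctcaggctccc
FAM219A: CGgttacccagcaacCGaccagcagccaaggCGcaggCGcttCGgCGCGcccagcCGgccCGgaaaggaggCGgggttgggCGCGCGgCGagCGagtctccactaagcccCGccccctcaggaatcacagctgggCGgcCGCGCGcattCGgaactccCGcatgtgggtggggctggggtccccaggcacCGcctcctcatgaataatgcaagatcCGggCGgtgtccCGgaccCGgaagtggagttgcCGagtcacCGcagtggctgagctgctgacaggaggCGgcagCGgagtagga
Over the 35116 RefSeq promoters of the same length the median was 14 CG dinucleotides. Fewer than in LRRC15 were found in 39.3% of promoters, and fewer than in FAM219A in 79.3%. Neither window holds TATAAA on either strand, a motif that 11.5% of all promoters hold. The promoter of CXCL14, the next highest gene by ratio, also holds 31 CG dinucleotides. Those of the lower genes C1GALT1 and USP40 hold 27 and 21, so the number did not divide higher from lower genes here.

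LRRC15 (ENSG00000172061, GRCh38 chromosome 3, 194355249 to 194369743, minus strand) encodes a leucine-rich repeat membrane protein known as a TGF-beta-induced gene of fibroblasts and mesenchymal tumours. It had 99, 81, 67 and 79 counts in the 4 ASO-Neg lanes, against 17, 22, 21 and 22 in the 4 Mock lanes. The lanes did not overlap, although they are readings of the same library and not replicates. Its level was 19.4 CPM in ASO-Neg and 6.35 CPM in Mock, a log2 ratio of 1.59 (interval 1.26 to 1.98). The ASOs for SREBF1 also lay above Mock, with 16.6 CPM in ASO-SREBF1-S1 and 12.4 CPM in ASO-SREBF1-S4, while siSREBF1 had 4.69 CPM and siNegative 7.56 CPM. All 3 ASO libraries were therefore above the 3 libraries without an ASO.

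CXCL14 (ENSG00000145824, chromosome 5, 135570679 to 135579279, minus strand), a chemokine, was the next highest by ratio and stayed under 2-fold. The ASO-Neg lanes held 73, 92, 77 and 67 counts, against 39, 30, 33 and 23 in the Mock lanes. Its level was 18.4 CPM in ASO-Neg and 9.68 CPM in Mock (log2 ratio 0.92, interval 0.62 to 1.24). Unlike that of LRRC15, the CXCL14 level did not divide the libraries by reagent. It was 10.1 CPM in ASO-SREBF1-S1, 12.2 CPM in ASO-SREBF1-S4, 12.1 CPM in siSREBF1 and 18.6 CPM in siNegative, so Mock was the lowest of the 6.

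FAM219A (ENSG00000164970, chromosome 9, 34398184 to 34458570, minus strand) had 16, 13, 8 and 10 counts in the ASO-Neg lanes, against 45, 56, 48 and 46 in the Mock lanes. Its level was 2.80 CPM in ASO-Neg and 15.1 CPM in Mock, a log2 ratio of -2.38 (interval -2.92 to -1.97). The remaining libraries lay together and close to Mock, with 13.0 CPM in ASO-SREBF1-S1, 15 CPM in ASO-SREBF1-S4, 15.6 CPM in siSREBF1 and 15.9 CPM in siNegative. ASO-Neg alone stood apart for this gene.

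KIF13B (ENSG00000197892, chromosome 8, 29067278 to 29263124, minus strand), a kinesin that carries cargo along microtubules, had 114, 106, 95 and 110 counts in the ASO-Neg lanes, against 171, 178, 182 and 153 in the Mock lanes. Its level was 25.3 CPM in ASO-Neg and 53 CPM in Mock (log2 ratio -1.06, interval -1.24 to -0.89). ASO-Neg was again the lowest of the 6 libraries and Mock the highest. The others had 51.2 CPM in ASO-SREBF1-S1, 36.9 CPM in ASO-SREBF1-S4, 45.0 CPM in siSREBF1 and 50.8 CPM in siNegative. The interval of KIF13B reaches to either side of a 2-fold difference, and without lane 3 its ratio was under 2-fold.

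C1GALT1, the enzyme that builds the core 1 structure of O-linked glycans, and USP40, a deubiquitinating enzyme, lay just inside 2-fold. C1GALT1 (ENSG00000106392) had 37.6 CPM in ASO-Neg and 73.1 CPM in Mock (log2 ratio -0.96, interval -1.11 to -0.81), with 59.3 to 73.1 CPM across the other 4 libraries. Its profile was that of FAM219A and KIF13B, with ASO-Neg below every other library. USP40 (ENSG00000085982) had 16.7 CPM in ASO-Neg and 33.1 CPM in Mock (log2 ratio -0.98, interval -1.21 to -0.77). It had 37.7 CPM in ASO-SREBF1-S1, 29.5 CPM in siSREBF1 and 34.7 CPM in siNegative, but 15.7 CPM in ASO-SREBF1-S4, so for USP40 the lowest library was an ASO for SREBF1.

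**Figure D1:**
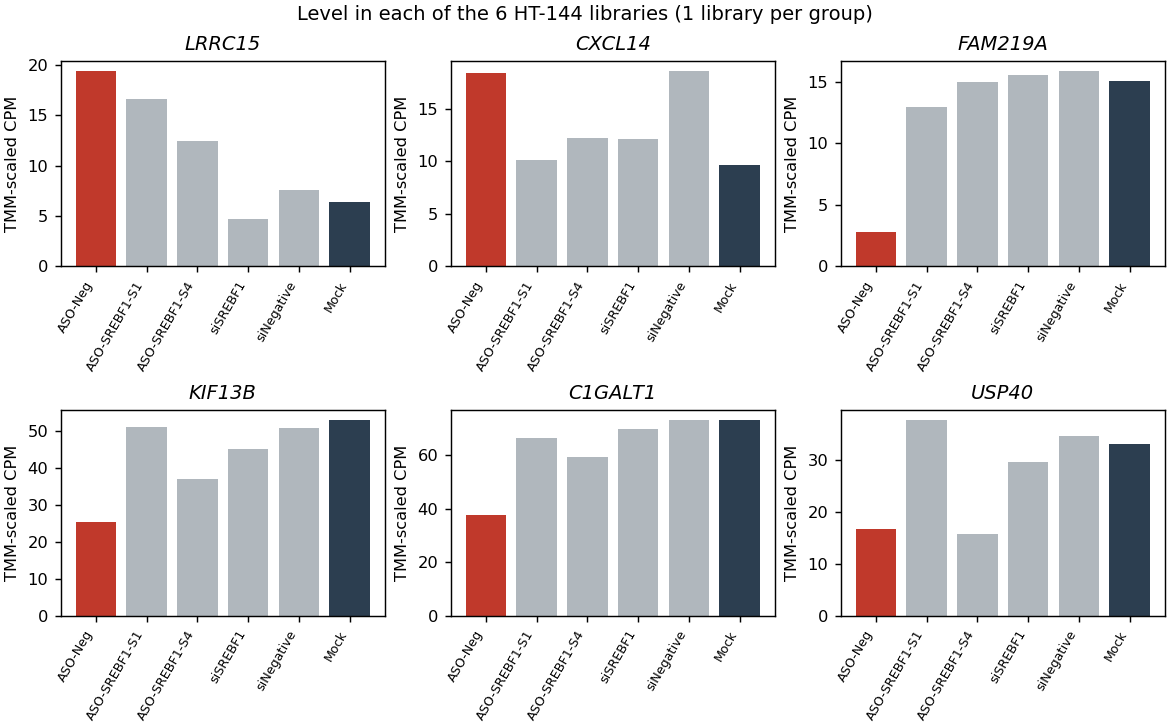
TMM-scaled CPM (vertical axes) of LRRC15, CXCL14, FAM219A, KIF13B, C1GALT1 and USP40 in each of the 6 libraries (horizontal axes), 1 bar per library and no error bars because each group is 1 library. ASO-Neg is red and Mock dark blue. FAM219A stood at 2.80 CPM in ASO-Neg and at 13.0 CPM or more in every other library, and LRRC15 was above Mock in the 3 ASO libraries.

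Across all measured genes the libraries were close. The median log2 ratio was 0.05, 5% of genes lay below -0.26 and 5% above 0.27, and 88.2% (8517 genes) lay within 0.25 of 0. The counting interval of the ratio lay above 0 for 2353 genes (24.4%) and below 0 for 936 (9.7%). These shares are the background against which the gene groups below are read. Intervals narrow as counts rise, so a list of abundant genes can pass these shares at very small ratios. MT-CO1, named after its values were seen, had 10779 CPM in ASO-Neg and counted as above 0 at a log2 ratio of 0.011 (interval 0.001 to 0.021). The counts of intervals below are therefore to be read with the medians beside them. The SREBF1 transcript, the target of the other ASOs and of the siRNA pool, had 220.0 CPM in ASO-Neg and 229 CPM in Mock (log2 ratio -0.06, interval -0.13 to 0.01, and 0.08 after the correction on GC content and transcript length given further on). SREBF2, the related factor of cholesterol genes, had 599 CPM in ASO-Neg and 593 CPM in Mock (0.01, interval -0.03 to 0.06).

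**Figure D2:**
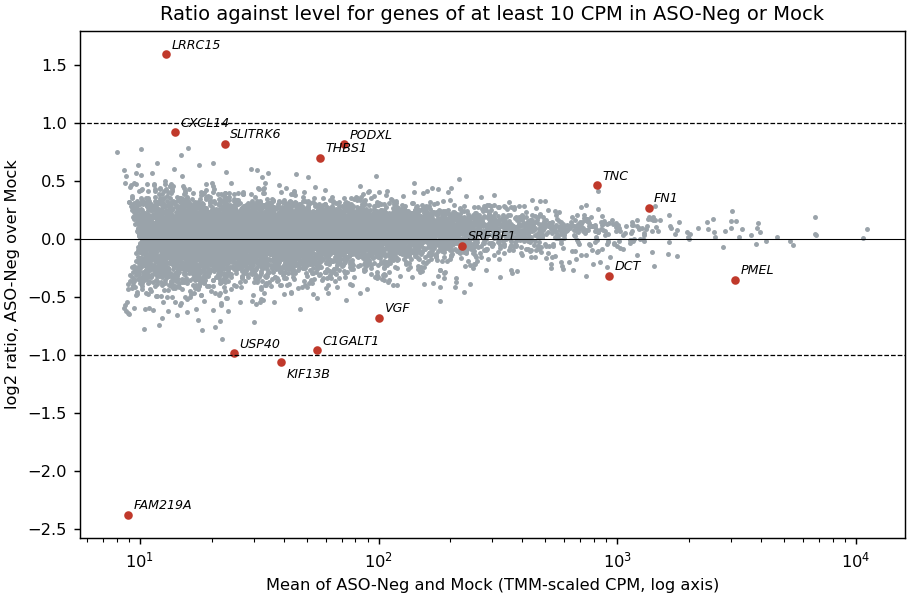
Log2 ratio of ASO-Neg over Mock (vertical axis) against the mean TMM-scaled CPM of both libraries (horizontal log axis), 1 point per measured gene, with named genes in red and dashed lines at 2-fold. LRRC15 lies above the upper line, FAM219A and KIF13B lie below the lower one, and 88.2% of genes lie within 0.25 of 0.

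The other transfections are set against the same Mock library, so their ratios share its errors and are given side by side only. A difference of 2-fold in either direction was seen for 1 of 9682 genes in siNegative over Mock (0.0103%), 71 of 9736 in siSREBF1 over Mock (0.729%), 49 of 9709 in ASO-SREBF1-S1 over Mock (0.505%) and 95 of 9757 in ASO-SREBF1-S4 over Mock (0.974%). The SD of the log2 ratios over genes was 0.166 for ASO-Neg, 0.246 for ASO-SREBF1-S1, 0.286 for ASO-SREBF1-S4, 0.266 for siSREBF1 and 0.148 for siNegative. Both non-targeting reagents thus lay nearer to Mock than the SREBF1 reagents did, in the count of genes and in spread.

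A fit over all 6 libraries gave the only error term for an ASO over Mock. It had terms for any ASO, any siRNA and a SREBF1 target, left 2 residual degrees of freedom and took the effects as additive. Its ASO term was shared by 3 different oligonucleotides and estimated together with the target term, so it is not a plain average of their ratios to Mock. At a Benjamini-Hochberg adjusted p of 0.05, edgeR's quasi-likelihood F test called 0 of 15395 genes (0%), with 182 (1.18%) at an unadjusted p under 0.05. The DESeq2 Wald test and limma-voom also called 0 genes, with 43 (0.279%) and 146 (0.948%) under an unadjusted 0.05. LRRC15 had an ASO term of 1.65 (SE 0.264), with an edgeR adjusted p of 1. CXCL14 had 0.87 (SE 0.218), KIF13B -0.78 (SE 0.344) and FAM219A -1.47 (SE 0.682), each with an edgeR adjusted p of 1. The FAM219A term is shared by the low ASO-Neg library and 2 ASO libraries near Mock, whose difference from ASO-Neg also enters the target term. The count depended on the filter for low counts: without it, 3 of 27322 genes were called by edgeR, with LRRC15 (1.66, edgeR adjusted p = 9.99e-06) and THBS1 (0.88, edgeR adjusted p = 0.00542) higher and FAM219A (-1.45, edgeR adjusted p = 0.00016) lower.

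At 1.5-fold, 17 measured genes were higher in ASO-Neg (0.176%) and 29 were lower (0.3%). Among the 17 higher genes, Mock was the lowest of the 6 libraries for 14 and ASO-Neg was the highest for 5, against 18.6% and 17.4% of all measured genes. Choosing genes by this ratio favours both places, so the counts are a description only. SLITRK6, a neuronal transmembrane protein, had 29.0 CPM in ASO-Neg and 16.3 CPM in Mock (log2 ratio 0.82), with 21.1 to 42.6 CPM elsewhere. PODXL, a sialomucin of the cell surface, had 91.4 CPM in ASO-Neg and 51.9 CPM in Mock (0.81), with 44.3 CPM in ASO-SREBF1-S1. FLRT3, an adhesion protein, had 20.2 CPM in ASO-Neg and 11.7 CPM in Mock (0.78). None of these 3 was highest in ASO-Neg. MMP1, the interstitial collagenase, had 10.1 CPM in ASO-Neg and 5.96 CPM in Mock (0.75), with 7.03 CPM in ASO-SREBF1-S1, 26.9 CPM in ASO-SREBF1-S4 and 48.7 CPM in siSREBF1. THBS1, the matrix glycoprotein thrombospondin, had 70.7 CPM in ASO-Neg and 43.5 CPM in Mock (0.70), with 165 CPM in ASO-SREBF1-S1, 107 CPM in ASO-SREBF1-S4 and 68.5 CPM in siSREBF1. For each gene, 2 of the 3 SREBF1 libraries were above ASO-Neg and 1 was below it.

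ABCA1, the exporter of cholesterol to apolipoproteins, had 12.8 CPM in ASO-Neg and 7.44 CPM in Mock (log2 ratio 0.77), and 19.6 to 21.4 CPM with the SREBF1 reagents. MGLL, which hydrolyses monoacylglycerols, had 18.5 CPM in ASO-Neg and 11.2 CPM in Mock (0.72), close to the 11.6 CPM of siNegative. ADARB1, an adenosine deaminase that edits double-stranded RNA, had 37.2 CPM in ASO-Neg and 24.6 CPM in Mock (0.59), and 28.1 to 36.7 CPM in the other libraries. ADARB1, N4BP2, DCBLD1 and SFMBT2 were the 4 genes for which ASO-Neg was highest and Mock lowest of the 6. N4BP2 had 14.5 CPM in ASO-Neg and 9.14 CPM in Mock, DCBLD1 12.0 CPM in ASO-Neg and 7.67 CPM in Mock, and SFMBT2, a polycomb group protein, 21.6 CPM in ASO-Neg and 13.9 CPM in Mock.

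Among the 29 lower genes ASO-Neg was the lowest of the 6 libraries for 20 and Mock the highest for 19, with 12 in both counts. Over all measured genes the shares were 6.71% and 12.8%, and here too the choice of genes favours both places. GALC, the lysosomal galactosylceramidase, and SLMAP, a tail-anchored membrane protein, were lower in ASO-Neg than in each other library. GALC had 16.5 CPM in ASO-Neg and 27.0 CPM in Mock (log2 ratio -0.70), with 27.8 to 31.6 CPM in the other 4 libraries. SLMAP, named after its values were seen, had 37.3 CPM in ASO-Neg and 56.6 CPM in Mock (-0.60), with 53.5 to 59.5 CPM in the others. VGF, a precursor of secreted neuropeptides, had 77.1 CPM in ASO-Neg and 123 CPM in Mock (-0.68), with 102 to 138 CPM in the others. In GALC, SLMAP and VGF, ASO-Neg was below every other library, as for FAM219A, at a smaller size. PRSS33, a serine protease, had 15.6 CPM in ASO-Neg and 28.4 CPM in Mock (-0.86), and ranged more widely among the others, from 18.9 to 44.3 CPM. For some genes the Mock level was the one apart: METRNL, a secreted protein, had 8.94 CPM in ASO-Neg and 15 CPM in Mock (-0.74), with 9.08 to 10.4 CPM elsewhere. SELENOH, a nuclear selenoprotein, had 15.3 CPM in ASO-Neg and 25.9 CPM in Mock (-0.76), with 16.6 to 22.2 CPM elsewhere.

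Genes at both ends differed in base composition. The median GC content of the longest annotated transcript was 45.7% for the 17 higher genes and 60.5% for the 29 lower genes, against 47.5% over all measured genes. The trend ran through the whole transcriptome: over 9646 genes the ratio and the GC content had a Pearson r of -0.43 and a Spearman rho of -0.42, given as a description across genes of the same 2 libraries. Over the 965 genes with the lowest GC content (median 36.9%) the median log2 ratio was 0.10 and 83.0% of genes were higher in ASO-Neg. Over the 965 with the highest GC content (63.5%) it was -0.15, and 16.2% were higher. Mock lay farther from the mean than ASO-Neg did for these GC-rich genes: the median log2 deviation from the mean of the 6 libraries was -0.05 in ASO-Neg, 0.01 in ASO-SREBF1-S1, -0.09 in ASO-SREBF1-S4, -0.05 in siSREBF1, 0.07 in siNegative and 0.10 in Mock. Longer transcripts also had higher ratios, with medians of 0.13 over the 965 longest and 0.00 over the 965 shortest, and length and GC content were themselves related (r = -0.30). The part of base composition in any single gene's ratio was not tested. After a correction of the ratios on GC content and length, chosen after the trend was seen, FAM219A stood at -2.34, KIF13B at -1.12, LRRC15 at 1.55 and CXCL14 at 0.87. VGF moved to -0.34, KREMEN2, a receptor for Dickkopf proteins, to -0.41 (from ASO-Neg and Mock levels of 13.3 and 21.7 CPM), and CCDC85B to -0.41 (13.3 and 23.1 CPM).

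**Figure D3:**
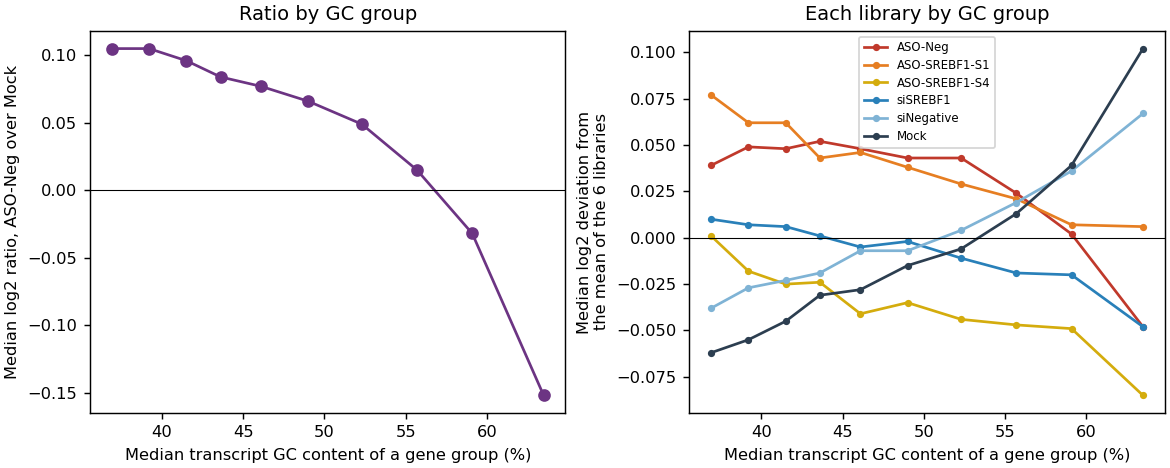
Median log2 ratio of ASO-Neg over Mock (left) and median log2 deviation of each library from the mean of the 6 libraries (right), both against the median transcript GC content of 10 groups of measured genes of like size, which lines join. The ratio was 0.10 in the group of lowest GC content and -0.15 in the highest, where Mock and siNegative lay above 0 and ASO-Neg below it.

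Genes that mark cell state in melanoma were the groups whose medians lay farthest from that of all genes. The melanocytic differentiation list holds genes that make pigment and its organelle under the factor MITF, and other genes of the lineage. Of 25, 19 were measured: 14 had an interval below 0 and 2 above it, against 9.7% and 24.4% of all genes, and the median was -0.16. PMEL, the fibril protein of melanosomes, had 2738 CPM in ASO-Neg and 3487 CPM in Mock (log2 ratio -0.35, interval -0.37 to -0.33). The pigment enzymes TYRP1 and DCT had 122 and 822 CPM in ASO-Neg and 153 and 1022 CPM in Mock (-0.33 and -0.32). TRPM1, a melanocyte cation channel, had 12.6 CPM in ASO-Neg and 16.7 CPM in Mock (-0.41). MITF, named after its values were seen, had 473 CPM in ASO-Neg and 529 CPM in Mock (-0.16). The 2 genes with a ratio above 0 were S100B and ERBB3, also named after their values were seen. S100B had 234 CPM in ASO-Neg and 213 CPM in Mock (0.14, interval 0.07 to 0.21). Over the libraries, Mock was the highest of the 6 for 14 of the 19 genes (73.7%, against 12.8% of all measured genes), and ASO-Neg for 0. The list's median deviation was 0.08 in ASO-Neg, 0.12 in ASO-SREBF1-S1, -0.24 in ASO-SREBF1-S4, -0.12 in siSREBF1, -0.02 in siNegative and 0.21 in Mock. After the GC and length correction its median ratio was -0.23. In bulk RNA, fewer cells of a state and less RNA per cell cannot be told apart. CDK2, a member of this list, overlaps PMEL on the opposite strand on chromosome 12. It had 9073 counts in ASO-Neg and 8320 in Mock, with 95 and 214 on the opposite strand, that of PMEL. The share of PMEL reads in the CDK2 counts was not tested. The narrower list of 8 lineage markers had 7 with an interval below 0 and 1 above it, with a median of -0.25. All 8 are also members of the melanocytic differentiation list, so they add no separate genes.

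The list of dedifferentiated melanoma and AP-1/YAP genes, which are high in invasive and drug-tolerant melanoma cells, lay on the other side. Of 26 genes 19 were measured, 12 had an interval above 0 and 1 below it, and the median was 0.22. NGFR, the neural crest nerve growth factor receptor, had 60.2 CPM in ASO-Neg and 41.5 CPM in Mock (log2 ratio 0.53, interval 0.38 to 0.69). TNC, the matrix protein tenascin C, had 953 CPM in ASO-Neg and 692 CPM in Mock (0.46), and WNT5A, a noncanonical WNT ligand, 68.3 CPM in ASO-Neg and 51.0 CPM in Mock (0.42). JUNB, an AP-1 subunit, was the exception, with 17.8 CPM in ASO-Neg and 26.0 CPM in Mock (-0.55). Mock was the lowest of the 6 for 9 of the 19 (47.4%, against 18.6% of all measured genes), while ASO-Neg was the highest for 0. For both state lists, the place of Mock among the 6 libraries was more extreme than that of ASO-Neg. A low Mock was not particular to these lists: Mock was also the lowest for 9 of 19 MAPK output genes (47.4%) and 7 of 22 p53 targets (31.8%).

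**Figure D4:**
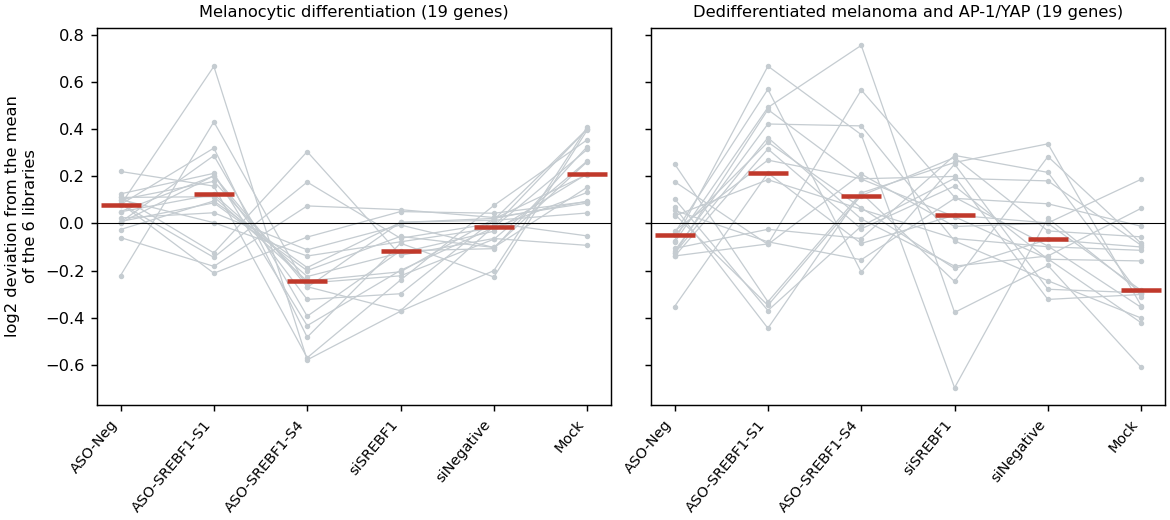
Log2 deviation from the mean of the 6 libraries (vertical axes) for the measured members of 2 lists in each library (horizontal axes): grey lines are genes and red bars are medians over genes. The melanocytic median was 0.08 in ASO-Neg and 0.21 in Mock, and the dedifferentiation median was -0.05 in ASO-Neg and -0.28 in Mock.

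Cell cycle genes differed little. Of 24 measured G2/M genes, 14 had an interval above 0 and 0 below it, with a median of 0.15. CENPF, a kinetochore protein, had 445 CPM in ASO-Neg and 366 CPM in Mock (log2 ratio 0.28, interval 0.23 to 0.34), and MKI67, the proliferation marker, 306 CPM in ASO-Neg and 254 CPM in Mock (0.27). ASO-Neg held the highest level of the 6 libraries for 21 of the 24 (87.5%, against 17.4% of all measured genes). Here ASO-Neg and not Mock was the library at the end of the range. Of 26 G1/S and replication genes, 13 had an interval above 0 and 1 below it (median 0.10), with CCNE2, a cyclin of S phase entry, at 14 CPM in ASO-Neg and 10.3 CPM in Mock (0.44). Of 30 ribosomal protein genes, 25 had an interval above 0 and 3 below it (median 0.10), and ASO-Neg was the highest library for 25. After the GC and length correction the medians were 0.10 for G2/M, 0.06 for G1/S and replication, and 0.06 for ribosomal protein genes.

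Genes of nucleic acid sensing were close to the level of all genes. Of 40 interferon response and sensing genes 20 were measured, 4 had an interval above 0 and 1 below it, and the median was 0.09. OAS3, which makes the activator of RNase L, had 111 CPM in ASO-Neg and 95 CPM in Mock (log2 ratio 0.22, interval 0.12 to 0.33), and ISG20, an exonuclease, 40.9 CPM in ASO-Neg and 54.5 CPM in Mock (-0.41). Of 14 measured NF-kB and inflammatory genes, 1 had an interval above 0, which was CXCL14, and 5 below it (median -0.07). IL24, a cytokine, had 26.6 CPM in ASO-Neg and 38.0 CPM in Mock (-0.51), and TNFAIP3, the feedback inhibitor A20, 33.1 CPM in ASO-Neg and 41.8 CPM in Mock (-0.34). Genes that handle antisense and small RNAs showed 14 of 27 with an interval above 0 and 0 below it, at a median of 0.08. ANXA2, a protein that binds phosphorothioate oligonucleotides, had 825 CPM in ASO-Neg and 721 CPM in Mock (0.19), and AGO2, the slicer of RNA interference, 80.0 CPM in ASO-Neg and 70.3 CPM in Mock (0.18). RNASEH1, named after its values were seen, had 38.7 CPM in ASO-Neg and 41.3 CPM in Mock (-0.09, interval -0.26 to 0.07). After the GC and length correction the median of this list was 0.00. Of 25 endosome and lysosome genes, 7 had an interval above 0 and 6 below it (median -0.01), with the protease CTSD at 147 CPM in ASO-Neg and 191 CPM in Mock (-0.38).

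Stress pathways showed small and mixed ratios. Of 21 measured genes in the list of ATF4 and its targets, 12 had an interval above 0 and 5 below it (median 0.15). SLC7A11, the cystine importer, had 115 CPM in ASO-Neg and 79.1 CPM in Mock (log2 ratio 0.54, interval 0.43 to 0.65), and MTHFD2, a mitochondrial folate enzyme, 142 CPM in ASO-Neg and 110 CPM in Mock (0.37). Of 23 unfolded protein response and heat shock genes, 14 had an interval above 0 and 1 below it (median 0.14). HYOU1, a chaperone of the endoplasmic reticulum, had 447 CPM in ASO-Neg and 381 CPM in Mock (0.23), whereas HSPB1, a small heat shock protein, had 158 CPM in ASO-Neg and 197 CPM in Mock (-0.31). Of 22 p53 targets, 8 had an interval above 0 and 2 below it (median 0.08). GDF15, a stress cytokine, was the lowest of these at 147 CPM in ASO-Neg and 213 CPM in Mock (-0.53). Of 20 NRF2 and oxidative stress genes, 8 had an interval above 0 and 3 below it (median 0.04). Of 26 hypoxia and glycolysis genes, 6 lay above and 8 below (median -0.01).

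Lipid synthesis genes, the targets of the SREBP factors, had medians slightly above the 0.05 of all measured genes. Of 24 cholesterol genes, 14 had an interval above 0 and 1 below it (median 0.09), and of 19 fatty acid synthesis genes, 11 above and 3 below (median 0.10). After the GC and length correction these medians were 0.05 and 0.06. FASN, the fatty acid synthase, named after its values were seen, had 1686 CPM in ASO-Neg and 1863 CPM in Mock (log2 ratio -0.145, interval -0.169 to -0.12). After that correction FASN was at 0.01. ACACA, which makes malonyl-CoA, had 295 CPM in ASO-Neg and 246 CPM in Mock (log2 ratio 0.26), and MVD, an enzyme of the mevalonate pathway, 138 CPM in ASO-Neg and 163 CPM in Mock (-0.24). Matrix genes went both ways: of 22, 13 had an interval above 0 and 7 below it (median 0.09). VCAN, a proteoglycan, had 192 CPM in ASO-Neg and 142 CPM in Mock (0.44), and COL9A3, a collagen chain, 155 CPM in ASO-Neg and 206 CPM in Mock (-0.41). LRRC15 stood apart from the other measured genes of the TGF-beta and BMP list, which holds targets and pathway members such as the receptors. The next by size was LTBP1, a protein that binds latent TGF-beta, at 75.6 CPM in ASO-Neg and 60.7 CPM in Mock (0.32). With LRRC15 included, 6 of 12 had an interval above 0 and 1 below it (median 0.11). KIF13B likewise stood apart among the 15 measured kinesins, of which 3 had an interval above 0 and 3 below it (median 0.07). Its paralog KIF13A had 86.3 CPM in ASO-Neg and 67.7 CPM in Mock (0.35). Of 19 genes of MAPK output, 5 had an interval above 0 and 2 below it (median 0.07), and of 12 mitochondrially encoded genes, 6 above and 3 below (median 0.02). Among measured list members, LRRC15 and KIF13B were the only ones at 2-fold or more. Both genes and the lists were chosen with earlier results of these data known, so their place in the lists is a description only.

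**Figure D5:**
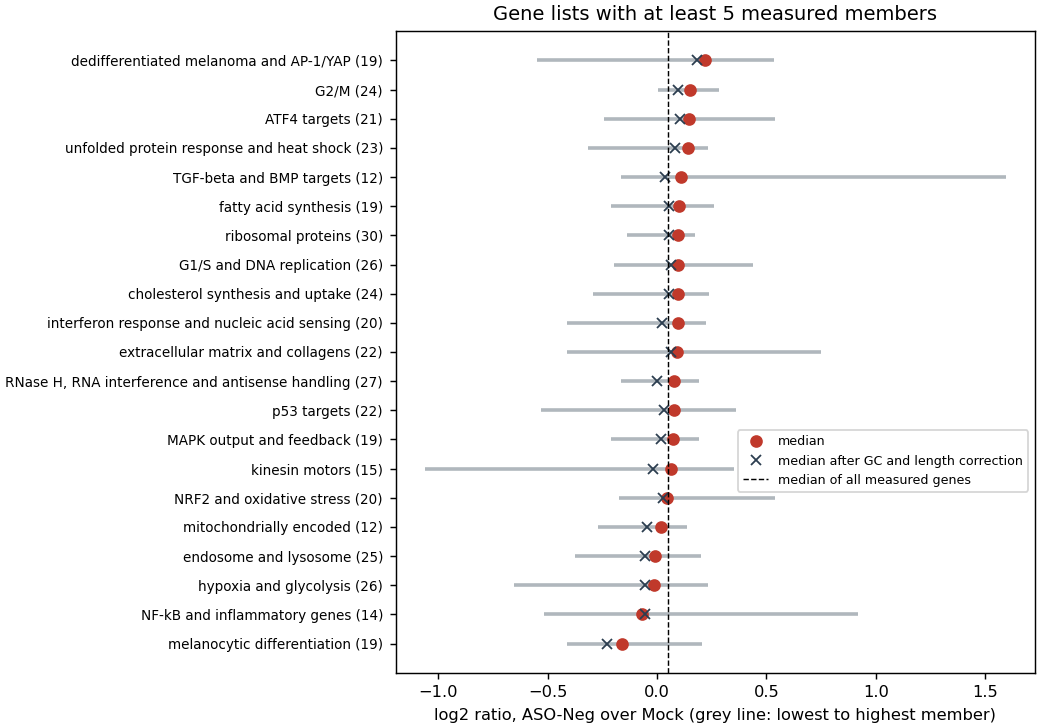
Median log2 ratio of ASO-Neg over Mock (horizontal axis) for gene lists with at least 5 measured members (number in brackets): red points are medians, crosses are medians after the GC and length correction, and grey lines run from the lowest to the highest member. The list of 8 lineage markers is not drawn. The dashed line is the median of all measured genes, 0.05. Of the lists drawn, melanocytic differentiation lies lowest at -0.16 and the dedifferentiated list highest at 0.22.

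Reads on the strand opposite to the one used made up 6.47% of the counts of both strands in ASO-Neg and 7.79% in Mock. The 109 genes had a median log2 ratio of -0.09, 0 were at least 2-fold higher and 5 at least 2-fold lower. For the 16 genes whose own counts were under 10% of those on the opposite strand, all 16 ratios were below 0. Their counts summed to 2.10% of the opposite strand's in ASO-Neg, against 3.44% in Mock. Examples, named after their values were seen, were GPS2, at 5.48 CPM in ASO-Neg and 12.2 CPM in Mock, and TUBA1B-AS1, at 5.48 CPM in ASO-Neg and 14.3 CPM in Mock.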

How the data were processed

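RNA-seq files of 24 lanes were deposited, each with whole-number read counts per gene without regard to strand and by strand; the authors' counts are not normalized. Reads were aligned with STAR 2.6.1a to GRCh38, and FastQC was used, per the submitters' processing notes. The sources used here do not give the annotation. Lines that name no gene were left out of library sizes; 81.64% of read pairs in ASO-Neg and 81.81% in Mock were assigned to a gene. Lanes of a library had a chi-square over genes, divided by its degrees of freedom, of 1.01 to 1.06, and lanes of ASO-Neg against Mock had 2.00 to 2.17, so lanes were summed to 1 library per group. Of 58735 gene identifiers, 58207 matched GENCODE release 44, the source of symbols and coordinates.

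The reverse-strand counts were scaled by TMM over the 6 libraries (edgeR 4.0.16, R 4.3.3). Ratios have a prior count of 2 and exact 95% binomial counting intervals. A gene was set aside where the opposite strand held more counts over the 6 libraries. The fit over 6 libraries used edgeR's filterByExpr and quasi-likelihood F test (2-sided), with DESeq2 1.42.0 and limma 3.58.1 as alternatives; its p-values measure the spread between libraries that received different reagents. The code was tested on simulated data. Genes and 26 lists were chosen with earlier results of these data known. The rule named FAM219A, KIF13B, LRRC15 and CXCL14, SREBF1 and SREBF2, the 15 highest and 15 lowest ratios among measured genes, and up to 4 members per list with the largest ratios of either sign; others are marked where they appear. Alternatives changed the scaling, prior count, CPM minimum, strand rule, count column, lanes, test and filter.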

Additional observations from a re-analysis of the deposited data

Results flagged for a closer look

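The share of read pairs that aligned to several places in the genome, which the comparison does not use, was higher in ASO-Neg than in the control library. It was 5.17% in ASO-Neg and 4.33% in Mock. The 4 lanes lay between 5.17% and 5.18% in ASO-Neg, and between 4.32% and 4.34% in Mock. The other 4 libraries had 4.14% in ASO-SREBF1-S1, 3.99% in ASO-SREBF1-S4, 4.44% in siSREBF1 and 4.23% in siNegative. The places to which these reads aligned were not analysed here.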

How the results depend on the processing

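The prior counts of 0.5 and 5, the unstranded counts, and the strand rule at 10% left the same 3 genes at 2-fold, LRRC15 higher and FAM219A and KIF13B lower. The count of lower genes was 3 with DESeq2 size factors (USP40 joined) and 4 with library totals alone or with the GC and length correction (C1GALT1 and USP40 joined). At a minimum of 5 CPM it was 5, with CCDC24, RTN4R and TSPAN10, and with no gene set aside by strand it was 7. At a minimum of 20 CPM, 0 genes were higher and 1 lower, and with no minimum 525 were higher and 683 lower. At 1.5-fold the counts were 17 and 29. Leaving out each lane in turn gave 1 to 2 higher and 2 to 4 lower genes. CXCL14 joined without lane 1, C1GALT1 and TSPAN10 without lane 4, and USP40 took the place of KIF13B without lane 3. Intervals lay wholly beyond 2-fold, at any level, for 1 higher gene (LRRC15) and 3 lower ones (FAM219A, LAT and ANKRD7). Outside the named-gene rule, CCDC24, RTN4R, TSPAN10, LAT and ANKRD7 were named after their values were seen. The GC and length correction, the 1.5-fold limit and the rule on whole intervals were chosen after seeing the data. In the fit over 6 libraries the count was 0 in both directions under every other scaling, tool and left-out library tried, and without a target term; it was 2 higher and 1 lower with no filter on low counts. The cause was not tested. Of 480 alternative values of 32 named genes, 475 stayed within the counting interval and 4 had the other sign: SREBF2 under 3 settings, and SREBF1, at 0.08, with the GC and length correction. Of 375 alternative medians of 25 lists, 17 had the other sign or were 0, in lists whose medians lay within 0.07 of 0. The NF-kB median was -0.20 with library totals alone and 0.01 at a minimum of 5 CPM, and the fibroblast median -0.02 in the unstranded counts. With library totals alone SREBF2 was at -0.04, the mitochondrially encoded median at -0.03 and the ribosomal median at 0.04. The mitochondrially encoded median was 0.00 with DESeq2 size factors and -0.01 in the unstranded counts. The lineage marker median was -0.19 at a minimum of 20 CPM, and -0.19 without lane 2. No paired analysis was possible because the replicate numbers name lanes of the same summed libraries. Depth limits genes at low levels: MMP1, with 170 counts in ASO-Neg and 77 in Mock, had an interval of 0.37 to 1.17.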
